A study of Homo sapiens with 72 samples.

Results

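Unsorted PEO1 cells that had been in rucaparib for 24 h were compared here with unsorted PEO1 cells that had been in it for 2 h. The libraries were chosen by their labels alone (no sort gate, rucaparib, 24 h or 2 h), and 18 of the 72 libraries of the series met this rule. Each time point had 9 libraries, 3 for each of 3 biological replicates, and the 3 libraries of a replicate were added together, which left 3 samples at 24 h and 3 samples at 2 h. Both groups, named Ruc_Total, were exposed to 8.5 µM rucaparib and were scraped into lysis buffer without sorting. The unsorted cells without drug, named Vehicle, were given DMSO for 24 h or 2 h and are used here only to show where the change over time in treated cells differed from that without drug. The sorted groups, Ruc_High and Ruc_Low, hold the brightest 20% and the dimmest 20% of treated cells by fluorescence of the drug. All groups come from PEO1, an established line of high-grade serous ovarian cancer cells that lack functional BRCA2, so the results describe 1 cell line at 1 dose.

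Rucaparib blocks poly(ADP-ribose) polymerases, enzymes that mark broken DNA, and holds them on it, and cells without BRCA2 repair the resulting breaks poorly. Cells that meet such damage can stop before mitosis, and the genes that build the spindle and drive division are read mainly in G2 and mitosis. The kinases of the integrated stress response lower protein synthesis and raise the transcription factors ATF4 and CHOP, whose targets include genes of amino acid supply and of cell death. These are general properties of the pathways and are given as background.

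The 18 libraries held 27050929 to 38899905 estimated reads each, and none duplicated another. Summed totals were 101014167 to 105977324 at 24 h and 92840593 to 96364387 at 2 h. The transcripts behind the reads were not equally long in all libraries, and their mean length lay under 2800 bases in 7 of the 18. Per sample, in the order of replicates 1, 2 and 3, this length was 2746, 2711 and 3229 bases at 24 h and 2758, 2982 and 2890 bases at 2 h, so both groups held long and short samples (exact permutation test, two-sided, p = 1.0, where the smallest p that 3 against 3 samples allow is 0.1). That test takes no account of the pairs, in which replicate 2 was shorter and replicate 3 longer at 24 h. In Vehicle the mean length was 3120, 3107 and 3231 bases at 24 h and 2729, 2747 and 3078 bases at 2 h. Replicates 1 and 2 of Ruc_Total at 24 h and replicates 1 and 2 of Vehicle at 2 h therefore shared short mean lengths. Alternative fits took this length as a covariate, gave each gene an offset for its effective length, used log2(TPM + 1) values (TPM are scaled for transcript length) or left out the libraries under 2800 bases. Of the serous and epithelial markers, PAX8 had 185, 156 and 198 CPM at 24 h, against 166, 187 and 189 CPM at 2 h, and 12 of 13 markers on that list passed the filter on low counts. Of the markers of other cells, 3 of 7 for fibroblasts, 2 of 8 for leukocytes and 4 of 5 for endothelium passed it. The summed levels in Ruc_Total were 116.3 to 181 CPM at 24 h and 163 to 246 CPM at 2 h for fibroblast markers, mostly THY1. They were 21.4 to 26.6 CPM at 24 h and 27.4 to 29.7 CPM at 2 h for leukocyte markers, and 11.7 to 13.3 CPM at 24 h and 12.7 to 17.6 CPM at 2 h for endothelial markers. CPM are counts scaled to a common library size by the TMM method.

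**Figure D1:**
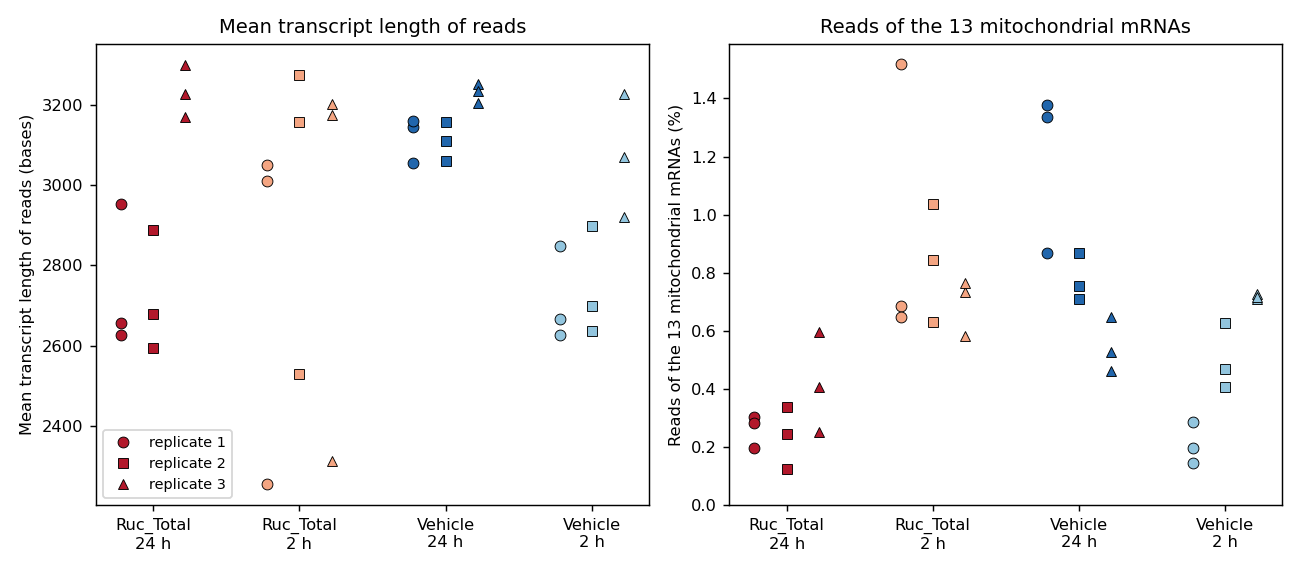
Mean length of the transcripts that gave the reads, in bases (left), and share of reads from the 13 mitochondrial mRNAs, in percent (right), for each library of Ruc_Total and Vehicle at 24 h and 2 h. Each point is 1 library and its shape gives the replicate. Libraries of Ruc_Total lie between 2594 and 3299 bases at 24 h and between 2255 and 3274 bases at 2 h, and their mitochondrial shares lie between 0.126% and 0.596% at 24 h and between 0.582% and 1.518% at 2 h.

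Of 19834 genes tested, 1123 were higher and 1232 lower at 24 h than at 2 h in Ruc_Total (edgeR's quasi-likelihood test with the replicate number as a block, Benjamini-Hochberg adjusted p under 0.05). That is 5.66% and 6.21% of all genes tested, and these shares are the background for the gene lists below. Genes whose 3 samples at 24 h all lay above, or all below, the 3 samples at 2 h made up 10.4% of all genes in each direction. The median log2 fold change over all genes was -0.02. Without the replicate block 231 genes were higher and 141 lower, or 1.16% and 0.711% of genes (1.88% in all), and every gene called in this fit was also called with the block. Leaving out replicate 2 left 8 higher and 11 lower, against 587 and 564 without replicate 1 and 404 and 531 without replicate 3. All 2355 genes called kept their direction both without the block and without replicate 2. These fits reuse the samples that gave the calls, so the kept direction is no separate support. In a fit of the 6 Ruc_Total samples alone, 8 of 17610 genes tested were higher and 6 lower. With mean transcript length as a covariate, 2097 were higher and 2493 lower, or 10.6% and 12.6% of genes. With the offset for effective length 662 were higher and 618 lower, or 3.34% and 3.12% (6.45% in all), and on the log2(TPM + 1) scale, tested with limma, 1002 were higher and 267 lower, or 5.05% and 1.35% (6.4% in all). Of the 108 genes called and named by the rule for named genes, 45 did not pass with the offset and 58 did not on the TPM scale.

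**Figure D2:**
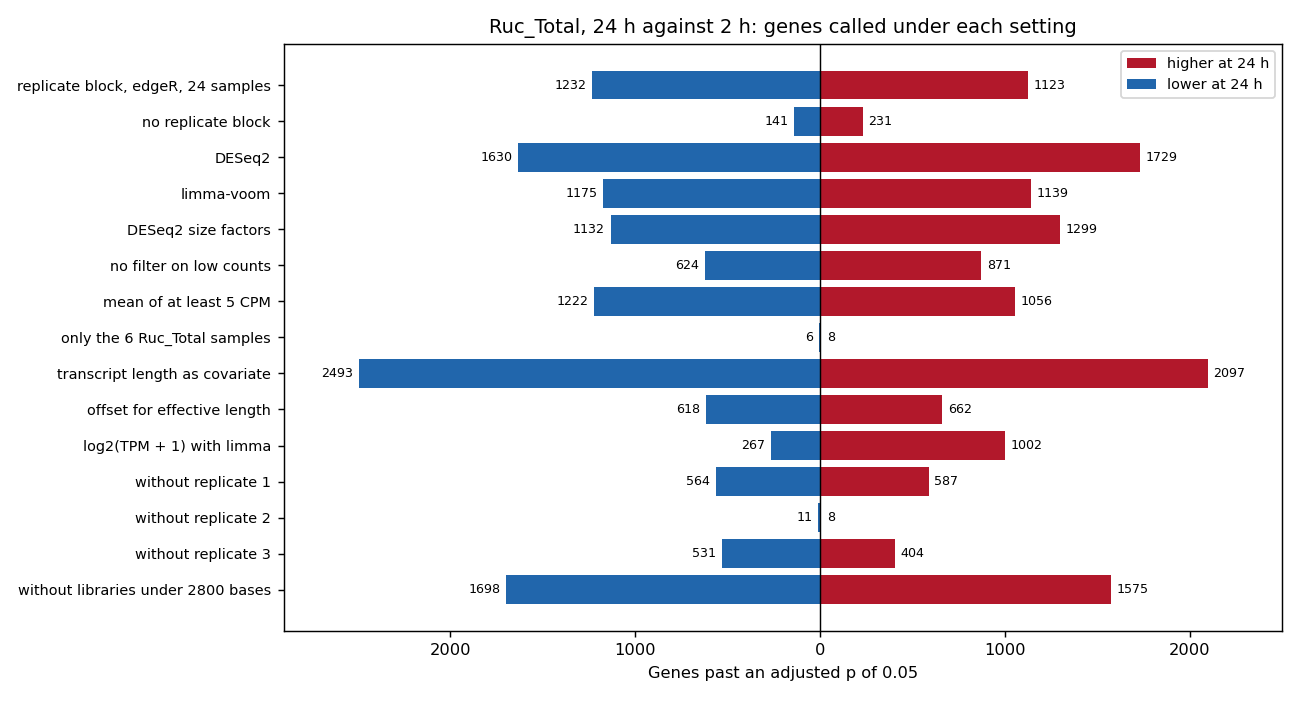
Number of genes past an adjusted p of 0.05 that were higher (right of 0) or lower (left of 0) at 24 h than at 2 h in Ruc_Total, for each setting of the analysis. The bars hold 1123 higher and 1232 lower genes with the replicate block, 231 and 141 without it, and 8 and 11 without replicate 2.

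At 24 h the cells held less mRNA of the genes that act in G2 and mitosis. Of 60 tested, 39 fell, none rose and 21 did not pass, with 59 of the 60 below 0 and a median log2 fold change of -0.59. In 40 of them the 3 samples at 24 h all lay below those at 2 h, where 10.4% of all genes did. KIF20A, a kinesin that acts in cytokinesis (chromosome 5, 138178719 to 138187715 in GRCh38), had 23.5, 30.5 and 51.6 CPM at 24 h, against 82.7, 128 and 123 CPM at 2 h, in the order of replicates 1, 2 and 3. The groups did not overlap, and the least reduced sample was replicate 3. KIF20A fell by 1.71 on the log2 scale (edgeR adjusted p = 1.3e-05, with a standard error of 0.16), and passed also without the block (adjusted p = 0.026) and without replicate 2 (adjusted p = 0.039). In Vehicle it had 109.5, 128 and 168 CPM at 24 h and 51.9, 116 and 137 CPM at 2 h, and the single low sample at 2 h was replicate 1.

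PLK1 encodes the kinase that drives entry into and passage through mitosis (chromosome 16, 23677656 to 23690367). It had 65.2, 78.3 and 97.3 CPM at 24 h, against 150.0, 177 and 182 CPM at 2 h. No sample at 24 h reached the level of a sample at 2 h, and PLK1 fell by 1.09 (edgeR adjusted p = 0.00025, with a standard error of 0.14, 0.023 without the block and 0.056 without replicate 2). DLGAP5, a protein that stabilises spindle fibres (chromosome 14, 55148112 to 55191678), had 37, 42.7 and 60.9 CPM at 24 h, against 89.1, 115 and 102 CPM at 2 h. It fell by 1.15 with no overlap between the groups (edgeR adjusted p = 0.00025, with a standard error of 0.15, 0.033 without the block and 0.056 without replicate 2). CCNB1 and CCNB2 are the B-type cyclins that activate CDK1, and CCNB1 had 196, 229 and 225 CPM at 24 h, against 364, 384 and 401 CPM at 2 h. Its samples were close together within each group and far apart between them, and it fell by 0.82 (adjusted p = 0.00089 from edgeR, 0.014 without the block). CCNB2 had 49, 69.3 and 82.7 CPM at 24 h, against 116, 145 and 144 CPM at 2 h and fell by 1.04 (adjusted p = 0.00089 from edgeR, 0.067 without the block). AURKA, a kinase of the spindle poles, had 49.6, 70.04 and 74.7 CPM at 24 h, against 109.8, 116 and 122 CPM at 2 h. AURKA fell by 0.87 (adjusted p = 0.0038 from edgeR, 0.089 without the block), again with the groups apart.

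The checkpoint kinase gene BUB1 had 19.7, 29.6 and 48.1 CPM at 24 h, against 63.3, 92.7 and 87.2 CPM at 2 h and fell by 1.40 (adjusted p = 0.00082 from edgeR, 0.087 without the block). TOP2A, the topoisomerase that untangles chromosomes, had 202, 239 and 295 CPM at 24 h, against 449, 472 and 443 CPM at 2 h and fell by 0.91 (adjusted p = 0.0014 from edgeR, 0.037 without the block). BUB1 and TOP2A were chosen for these sentences after their values were seen, and neither overlapped between the times. Not all genes of the list passed. TPX2, a spindle assembly factor, had 261, 289 and 345 CPM at 24 h, against 329, 378 and 369 CPM at 2 h (log2 fold change -0.28, adjusted p = 0.12 from edgeR), and its groups overlapped. MKI67, the proliferation marker Ki-67, had 67.3, 88 and 206 CPM at 24 h, against 144, 236 and 201 CPM at 2 h, where replicate 3 at 24 h lay within the range at 2 h (log2 fold change -0.80, adjusted p = 0.057 from edgeR, 0.0020 with mean transcript length as a covariate).

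Without the replicate block, 10 of the 60 fell: ASPM, CDCA3, KIF20A, CDC20, DLGAP5, TOP2A, CCNB1, CCNA2, SGO2 and PLK1. Without replicate 2, KIF20A alone passed and the median was -0.53, against 39 called and a median of -0.59 with all replicates. With mean transcript length as a covariate 46 fell, where 12.6% of all genes did. Without libraries under 2800 bases 44 fell, where 1698 of all 18563 genes tested did. With the offset 27 fell and on the TPM scale 15 (3.12% and 1.35% of all genes), with medians of -0.45 and -0.39. In Vehicle 0 of the 60 fell and 1 rose, with a median of 0.18, where 4.17% of all genes fell and 4.1% rose (8.27% in all). In the sorted cells, the medians were -0.50 for Ruc_High (28 lower) and -0.43 for Ruc_Low (19 lower). Of all genes, 1.47% rose and 1.21% fell in Ruc_High (2.68% in all), and 1.32% rose and 0.978% fell in Ruc_Low (2.3% in all). In RNA from bulk cells, a smaller number of cells in G2 and mitosis and less of these mRNAs per cell cannot be told apart.

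**Figure D3:**
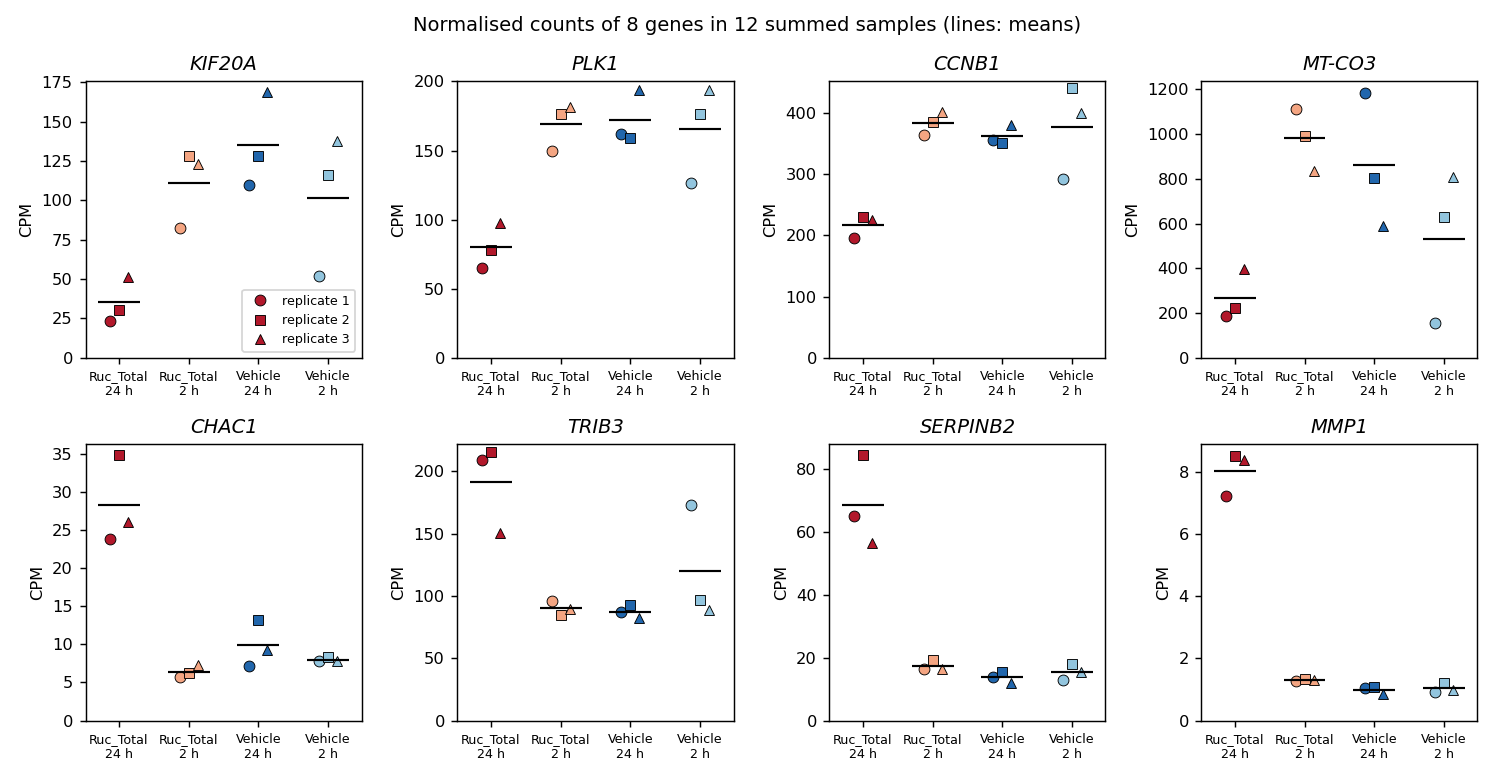
Level in CPM of 8 genes in each of the 12 summed samples of Ruc_Total and Vehicle at 24 h and 2 h, on linear axes that start at 0. Each point is 1 sample, its shape gives the replicate and each line is the mean of 3. KIF20A, PLK1, CCNB1 and MT-CO3 are lower, and CHAC1, TRIB3, SERPINB2 and MMP1 higher, in all 3 samples of Ruc_Total at 24 h than in all 3 at 2 h.

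The promoters of PLK1 and DLGAP5 are shown because they are the called G2 and mitosis genes with the smallest p whose promoter holds a CHR, the element TTTGAA at which the DREAM and MuvB complexes are known to act. Each is 250 bases before to 50 after the RefSeq start in GRCh38.p14, with PLK1 at chr16:23678639-23678938 on the plus strand and DLGAP5 at chr14:55191536-55191835 on the minus strand. Capitals mark CHR letters (TTTGAA, or TTCAAA where they lie on the other strand) and CCAAT boxes, the NF-Y element.
PLK1: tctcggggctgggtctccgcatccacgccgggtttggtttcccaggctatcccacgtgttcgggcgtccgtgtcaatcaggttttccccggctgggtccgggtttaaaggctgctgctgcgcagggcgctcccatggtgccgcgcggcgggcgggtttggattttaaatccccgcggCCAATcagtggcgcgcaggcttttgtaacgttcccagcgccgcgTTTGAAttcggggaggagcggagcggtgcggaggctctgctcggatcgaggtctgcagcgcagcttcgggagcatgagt
DLGAP5: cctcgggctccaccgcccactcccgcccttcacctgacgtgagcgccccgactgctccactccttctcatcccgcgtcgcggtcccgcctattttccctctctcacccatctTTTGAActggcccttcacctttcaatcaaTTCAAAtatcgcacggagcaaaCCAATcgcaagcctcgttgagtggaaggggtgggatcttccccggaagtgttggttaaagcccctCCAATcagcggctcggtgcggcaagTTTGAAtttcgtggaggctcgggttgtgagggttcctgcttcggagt
PLK1 held 1 CHR at position -29 from the start and 1 CCAAT box at -73. DLGAP5 held CHRs at -138, -109 and 4, and CCAAT boxes at -87 and -22. Among 12069 tested genes with a promoter in the table, 9.95% held TTTGAA on either strand. The share was 14.3% for the genes called lower (122 of 851) and 3.95% for those called higher (31 of 784). Of the G2 and mitosis list, 36 of 53 promoters held it, and 43 of 53 held CCAAT, against 36.2% of all promoters. The motifs do not overlap each other in these promoters, and a match of letters is a description and not a site.

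Targets of ATF4 and CHOP were higher at 24 h. Of 26 tested, 12 rose, 1 fell and 13 did not pass, with a median log2 fold change of 0.41, where 5.66% of all genes rose. In 13 of them all samples at 24 h lay above those at 2 h, against 10.4% of all genes. CHAC1, which encodes an enzyme that degrades glutathione (chromosome 15, 40952962 to 40956519), had 23.8, 34.9 and 26 CPM at 24 h, against 5.75, 6.2 and 7.23 CPM at 2 h. The 3 samples at 24 h all lay far above the 3 at 2 h. CHAC1 averaged 28.2 ± 5.85 CPM at 24 h, against 6.39 ± 0.759 CPM at 2 h (SD, n = 3 each) and rose by 2.13 (edgeR adjusted p = 1.3e-05, with a standard error of 0.20), and it passed in each of the 14 alternative fits, at 0.021 without replicate 2. In Vehicle it had 7.11, 13.2 and 9.24 CPM at 24 h and 7.83, 8.32 and 7.84 CPM at 2 h, with no sample at 24 h near those of treated cells.

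TRIB3, a pseudokinase that restrains ATF4 and CHOP, had 209, 215 and 150.2 CPM at 24 h, against 96.1, 84.6 and 89.8 CPM at 2 h and rose by 1.07 (adjusted p = 0.0016 from edgeR, 0.072 without replicate 2). Its samples did not overlap, but replicate 1 of Vehicle at 2 h was also high (173, 96.9 and 88.6 CPM in Vehicle at 2 h, 87.1, 92.5 and 82 CPM in Vehicle at 24 h). NUPR1, a stress-induced chromatin protein, had 19.8, 27.8 and 21.5 CPM at 24 h, against 10.4, 12.5 and 13.3 CPM at 2 h and rose by 0.92 (adjusted p = 0.00039 from edgeR, 0.064 without replicate 2). DDIT3, the gene of CHOP itself, had 16.5, 26.4 and 18.3 CPM at 24 h, against 10.0, 8.98 and 10.3 CPM at 2 h. DDIT3 rose by 1.04 with no overlap (adjusted p = 0.014 from edgeR), but did not pass without the block (adjusted p = 0.056). STC2, a secreted glycoprotein, had 229, 262 and 226 CPM at 24 h, against 139.7, 127 and 114 CPM at 2 h and rose by 0.92 (adjusted p = 0.0053 from edgeR, 0.016 without the block). PPP1R15A, the phosphatase subunit GADD34 that restores protein synthesis, had 296, 214 and 150.2 CPM at 24 h, against 168, 74 and 85.3 CPM at 2 h, where the groups overlapped and replicate 1 was highest at both times. It passed only within pairs (log2 fold change 1.07, adjusted p = 0.011 from edgeR with the block and 0.44 without it). ATF4 mRNA itself had 71.7, 86.6 and 79.7 CPM at 24 h, against 70.9, 69 and 67 CPM at 2 h (log2 fold change 0.20, adjusted p = 0.28 from edgeR). DDIT3, STC2, PPP1R15A and ATF4 were picked for these sentences after their values were seen.

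The member that fell was SLC3A2, the heavy chain of amino acid exchangers, with 189, 206 and 165 CPM at 24 h, against 214, 239 and 248 CPM at 2 h (log2 fold change -0.33, adjusted p = 0.020 from edgeR). Its fold change was 0.18 with an offset for effective length and 0.30 on the log2(TPM + 1) scale, so its direction depends on how transcript length is treated. Without the block TRIB3, STC2, CHAC1 and NUPR1 passed (4 of 26). In a fit of the 6 Ruc_Total samples alone, CHAC1 was the 1 of 25 tested that passed, with a median of 0.42. Without replicate 2 CHAC1 alone passed, with a median of 0.38, and without replicate 3 there were 6 called. In Vehicle none of the 26 rose and 1 fell, with a median of -0.09. The medians were 0.26 in Ruc_High (4 higher, 1 lower) and 0.41 in Ruc_Low (7 higher, 1 lower).

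The promoter of CHAC1 (chr15:40953221-40953520, plus strand, RefSeq, GRCh38.p14) is shown because it is the called ATF4 and CHOP target whose promoter holds the C/EBP-ATF composite element, TGATGNAA on either strand. Capitals mark that element, here on the minus strand.
CHAC1: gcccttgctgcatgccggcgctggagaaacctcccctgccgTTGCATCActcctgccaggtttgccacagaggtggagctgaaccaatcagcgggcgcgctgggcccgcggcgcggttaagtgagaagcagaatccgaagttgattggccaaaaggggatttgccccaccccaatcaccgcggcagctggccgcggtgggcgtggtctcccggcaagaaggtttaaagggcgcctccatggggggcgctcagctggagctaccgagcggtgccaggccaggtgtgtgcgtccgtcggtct
It lay at -209 from the start. The composite was in 1.79% of all 12069 promoters, in 5 of 20 on the list and in 1 of 9 of its called members with a promoter.

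Genes of the plasminogen activator and metalloproteinase group that act outside the cell moved in both directions. Of 17 tested, 4 rose (MMP1, SERPINB2, MMP10 and MMP9) and 2 fell, among them TIMP3, an inhibitor of metalloproteinases, with a median of 0.02. SERPINB2, an inhibitor of plasminogen activators (chromosome 18, 63871692 to 63903890), had 64.8, 84.3 and 56.4 CPM at 24 h, against 16.4, 19.3 and 16.4 CPM at 2 h. Every sample at 24 h lay above 50 CPM and every sample at 2 h below 20 CPM, a rise of 1.97 (edgeR adjusted p = 1.3e-05, with a standard error of 0.17, 0.016 without replicate 2). MMP1, an interstitial collagenase (chromosome 11, 102789920 to 102798160), had 7.22, 8.53 and 8.38 CPM at 24 h, against 1.28, 1.35 and 1.32 CPM at 2 h. It rose by 2.61 (edgeR adjusted p = 1.3e-05, with a standard error of 0.24, 0.021 without replicate 2), and its samples within a group were nearly equal. In Vehicle SERPINB2 had 14, 15.5 and 12 CPM at 24 h and 12.8, 18.1 and 15.5 CPM at 2 h, and MMP1 had 1.06, 1.08 and 0.859 CPM at 24 h and 0.936, 1.23 and 0.972 CPM at 2 h. SERPINB2 and MMP1 passed in every alternative that could be fitted. The stromelysin gene MMP10 had 1.06, 1.43 and 1.52 CPM at 24 h, against 0.338, 0.343 and 0.351 CPM at 2 h and rose by 1.93 (adjusted p = 0.0019 from edgeR, 0.083 without replicate 2). MMP9, a gelatinase, rose by 0.70 (adjusted p = 0.0038 from edgeR, 0.050 without the block).

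Transcripts of the mitochondrial genome were lower at 24 h. Of the 13 mRNAs it encodes, all parts of the respiratory chain or of ATP synthase, 11 fell and 2 did not pass, with a median of -1.68, where 6.21% of all genes fell. Their share of reads was 0.261%, 0.239% and 0.413% at 24 h and 0.950%, 0.835% and 0.692% at 2 h in replicates 1, 2 and 3. All 3 samples at 24 h lay below all 3 at 2 h (exact permutation test, two-sided, p = 0.1, the smallest that 3 against 3 samples allow). MT-CO3, a subunit of cytochrome c oxidase, had 186, 223 and 398 CPM at 24 h, against 1111, 993 and 838 CPM at 2 h and fell by 1.94 (edgeR adjusted p = 0.012, with a standard error of 0.45, 0.042 without the block and 0.19 without replicate 2). MT-CO2, another subunit, had 523, 409 and 521 CPM at 24 h, against 1719, 1206 and 1033 CPM at 2 h and fell by 1.44 (adjusted p = 0.011 from edgeR, 0.035 without the block). MT-CYB, of complex III, fell by 2.10 (adjusted p = 0.017 from edgeR, 0.079 without the block), and MT-ATP6, of ATP synthase, by 2.05 (adjusted p = 0.013 from edgeR, 0.050 without the block). MT-ND6, a subunit of complex I and the one mRNA read from the other strand, had 12.5, 6.99 and 1.78 CPM at 24 h, against 15.3, 7.0 and 2.79 CPM at 2 h (log2 fold change -0.29, adjusted p = 0.31 from edgeR).

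The pairs of replicates 1, 2 and 3 gave medians of -2.09, -2.06 and -0.91. Without the block 2 of the 13 passed, MT-CO2 and MT-CO3, and without replicate 2 none did (edgeR), with a median of -1.47, and without replicate 3 there were 6. On the TPM scale 1 of the 13 passed, with a median of -1.53, and with the offset 11 did (1.35% and 3.12% of all genes fell). With mean transcript length as a covariate 12 fell (12.6% of all genes). In a fit of the 6 Ruc_Total samples alone none of the 13 passed, with a median of -1.69. In Vehicle the share was 1.199%, 0.775% and 0.545% at 24 h and 0.217%, 0.502% and 0.718% at 2 h, and the median change was 0.78. Replicate 1 of Vehicle at 2 h was thus as low as the treated cells at 24 h, and these are samples of similar mean transcript length (2729 bases in Vehicle at 2 h, 2746 and 2711 bases in replicates 1 and 2 of Ruc_Total at 24 h). The part of RNA quality in the mitochondrial share was not tested. In the sorted cells the medians were 0.09 in Ruc_High and 0.15 in Ruc_Low, with no gene called by edgeR. Their mitochondrial shares ran from 1.439% to 3.928% per sample, above every Ruc_Total sample at either time, so the levels compared were not alike. Single sorted libraries ran from 0.22% to 5.17%.

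**Figure D4:**
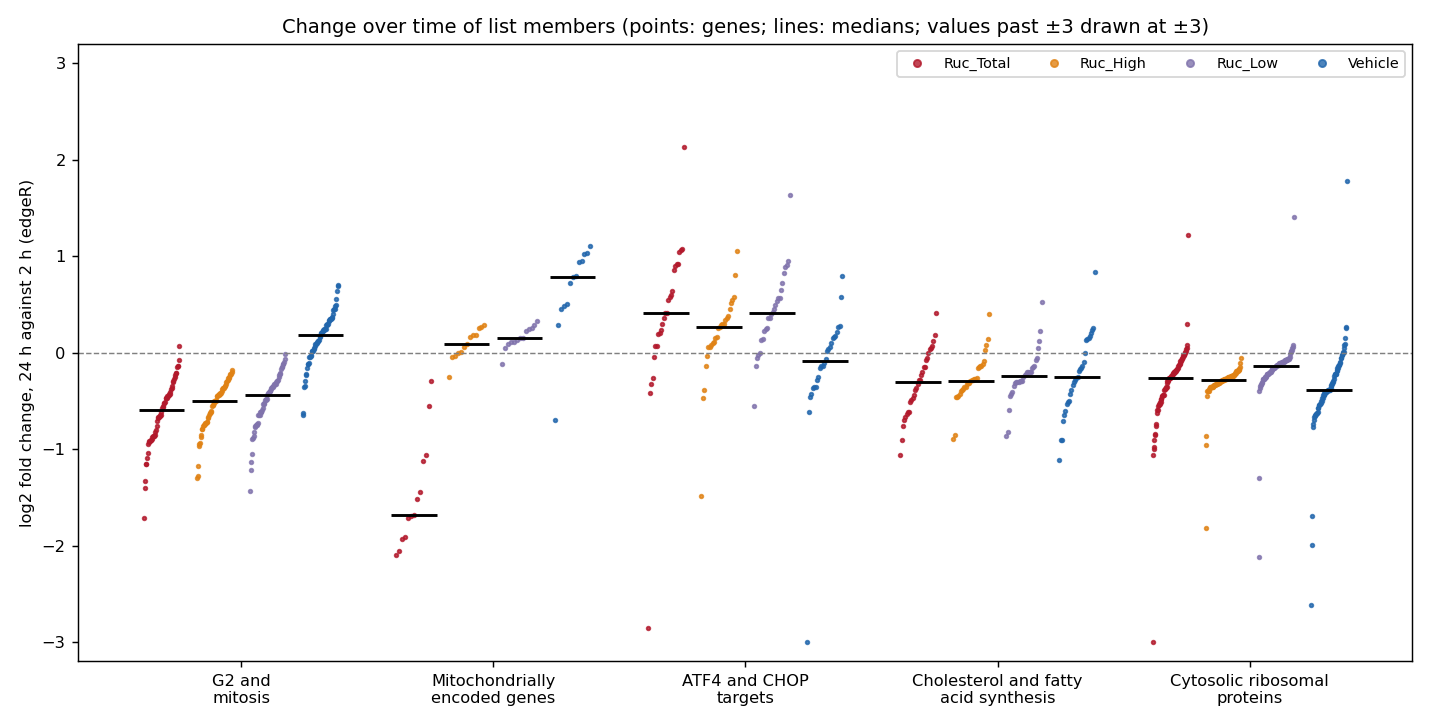
Log2 fold change at 24 h against 2 h for the members of 5 gene lists in Ruc_Total, Ruc_High, Ruc_Low and Vehicle, from the same edgeR fit. Each point is 1 gene, and each black line is the median of the list. The medians of G2 and mitosis genes are below 0 in the 3 treated groups and above 0 in Vehicle, and those of mitochondrially encoded genes are below 0 in Ruc_Total alone.

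Genes of cholesterol and fatty acid synthesis were lower at 24 h. Of 30 tested, 15 fell, none rose and 15 did not pass, with a median of -0.30, where 6.21% of all genes fell. INSIG1, which retains the sterol sensor of the SREBP factors in the endoplasmic reticulum, had 57.1, 51.6 and 54.7 CPM at 24 h, against 87.9, 92.8 and 126 CPM at 2 h. The groups did not overlap, and INSIG1 fell by 0.90 (edgeR adjusted p = 0.00021, with a standard error of 0.11, 0.0022 without the block and 0.056 without replicate 2). STARD4, a carrier of cholesterol between membranes, had 23.6, 26 and 30.7 CPM at 24 h, against 36.2, 39.7 and 47.4 CPM at 2 h and fell by 0.62 (adjusted p = 0.00074 from edgeR, 0.064 without replicate 2). Its log2 fold change was -0.09 with the offset and -0.04 on the TPM scale (adjusted p = 0.83 from edgeR and 0.94 from limma), so its fall depends on how transcript length is treated. For INSIG1 these values were -0.86 and -0.74. INSIG1 and STARD4 were among the 3 of 30 that passed without the block, and none passed without replicate 2 (edgeR) and 8 without replicate 3. With the offset 11 fell and on the TPM scale 5, where 3.12% and 1.35% of all genes fell. In a fit of the 6 Ruc_Total samples alone none of the 30 passed. In Vehicle the median was -0.26, with 8 of 30 lower (4.17% of all genes). Set against Vehicle, 5 of the 30 were more negative and 1 more positive in treated cells, where 8.64% and 8.61% of all genes were, with a median difference of -0.16. INSIG1 changed there by -1.11, and the difference between treated and Vehicle cells was 0.21 (adjusted p = 0.36 from edgeR).

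Of 77 genes of cytosolic ribosomal proteins tested, 23 fell, none rose and 54 did not pass, with a median of -0.26, where 6.21% of all genes fell. The pairs disagreed in the list's median, -0.30 in replicate 1, 0.17 in replicate 2 and -0.64 in replicate 3. RPL27, of the large subunit, had 316, 479 and 453 CPM at 24 h, against 680.2, 789 and 841 CPM at 2 h and fell by 0.90 (adjusted p = 0.0048 from edgeR, 0.072 without the block). Without the block 2 passed (RPL35 and RPL39), without replicate 1 there were 12, without replicate 3 there was 1, without replicate 2 none passed, and without libraries under 2800 bases none did either (edgeR), where the median was 0.01. With mean transcript length as a covariate 43 fell, with the offset 14 and on the TPM scale 2 (12.6%, 3.12% and 1.35% of all genes). These are short mRNAs, and their calls moved with how read length composition was treated. In Vehicle the median was -0.39, with 4 lower (4.17% of all genes).

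Of the genes that answer to DNA damage and arrest, p53 targets numbered 23. Among them 2 rose (TP53I3 by 0.49 and XPC by 0.26), 1 fell (CCNG1 by 0.40) and 20 did not pass, with a median of 0.17, where 5.66% of all genes rose and 6.21% fell. Under the length covariate 7 rose and 2 fell (10.6% and 12.6% of all genes). Set against Vehicle, 7 of the 23 were more positive and 1 more negative in treated cells, where 8.61% and 8.64% of all genes were. TP53I3, an oxidoreductase, had 97.6, 118 and 88 CPM at 24 h, against 69.1, 73.2 and 72.9 CPM at 2 h (adjusted p = 0.0074 from edgeR, 0.071 without the block). XPC, a sensor of damaged DNA, had 45.2, 44.1 and 42.5 CPM at 24 h, against 36.9, 39 and 34.6 CPM at 2 h (adjusted p = 0.028 from edgeR, 0.15 without the block), and CCNG1, cyclin G1, had 43.7, 51.2 and 50.3 CPM at 24 h, against 61.5, 64 and 65.5 CPM at 2 h (adjusted p = 0.0080 from edgeR, 0.11 without the block). With the offset TP53I3, XPC and CCNG1 stood at 0.60, 0.23 and -0.19 and did not pass (adjusted p = 0.077, 0.35 and 0.37 from edgeR). CDKN1A, the gene of the cell cycle inhibitor p21, had 33.5, 44 and 33.8 CPM at 24 h, against 23.1, 24 and 29.2 CPM at 2 h (log2 fold change 0.55, adjusted p = 0.073 from edgeR, 0.049 with mean transcript length as a covariate). Its 3 samples at 24 h lay above those at 2 h, and in Vehicle it had 7.89, 9.94 and 8.86 CPM at 24 h and 16.4, 17.9 and 20.8 CPM at 2 h. The change in treated cells exceeded that in Vehicle by 1.59 (adjusted p = 0.0040 from edgeR). GADD45A, a growth arrest gene, had 642, 706 and 387 CPM at 24 h, against 353, 200.2 and 222 CPM at 2 h and rose by 1.17 (adjusted p = 0.0011 from edgeR, 0.13 without the block), the one of 8 CDK inhibitor and GADD45 genes that passed.

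Of 43 genes of DNA replication and S phase, 3 rose and 2 fell. Set against Vehicle, 12 of the 43 were more positive and 1 more negative (8.61% and 8.64% of all genes). CCNE1, the cyclin of the G1 to S transition, had 20.8, 17.9 and 16.5 CPM at 24 h, against 16, 14.2 and 15 CPM at 2 h (log2 fold change 0.29, adjusted p = 0.029 from edgeR). MCM6, of the replicative helicase, had 105, 92.1 and 85.3 CPM at 24 h, against 113, 112 and 108 CPM at 2 h (log2 fold change -0.24, adjusted p = 0.036 from edgeR). CHAF1A, a histone chaperone, rose by 0.42, and POLE2, a subunit of DNA polymerase epsilon, fell by 0.61 (adjusted p = 0.044 and 0.045 from edgeR). GINS1, of the helicase complex, was called higher (0.72), but its estimates differed by up to 206 times between libraries of 1 replicate. None of CCNE1, MCM6, CHAF1A and POLE2 passed without the block, and with the offset the values of CCNE1, MCM6 and CHAF1A were 0.17, -0.23 and 0.21, none of them past the test. POLE2 stood at -1.05 with the offset and passed there (adjusted p = 0.0055 from edgeR). Of 35 genes of homologous recombination and the checkpoint, 2 rose (RAD51D by 0.32 and XRCC3 by 0.37) and 1 fell (FANCL by 0.42), with adjusted p = 0.017, 0.019 and 0.013 from edgeR. None of these 3 passed without the block (0.069, 0.19 and 0.10) or without replicate 2. With mean transcript length as a covariate 4 of the 35 rose and 3 fell (10.6% and 12.6% of all genes). Of 21 PARP enzymes and single-strand break repair genes, 2 rose and none fell. With the length covariate 4 of the 21 rose and 3 fell (10.6% and 12.6% of all genes). XRCC1, the scaffold of single-strand break repair, had 46.8, 52.2 and 48.9 CPM at 24 h, against 38.5, 40.2 and 39.1 CPM at 2 h and rose by 0.33 (adjusted p = 0.0024 from edgeR, 0.051 without the block), and PARP6 rose by 0.29 (adjusted p = 0.014 from edgeR, 0.075 without the block). PARP2 had 45.8, 50.4 and 55.8 CPM at 24 h, against 52.8, 53.2 and 52.5 CPM at 2 h (log2 fold change -0.07, adjusted p = 0.79 from edgeR). PARP1 and BRCA2 did not pass (log2 fold changes -1.22 and 0.40, adjusted p = 0.32 and 0.34 from edgeR), and PARP1 estimates differed by up to 121 times between libraries of 1 replicate. Over all genes 5.66% were higher and 6.21% lower. The apoptosis list had 3 of 31 higher, the death receptor TNFRSF10A (by 0.44), the caspase 8 regulator CFLAR (0.31) and the adaptor FADD (0.43), and none lower (adjusted p = 0.0082, 0.021 and 0.031 from edgeR). None of them passed without the block (0.13, 0.080 and 0.13) or without replicate 2.

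Heat shock protein genes had 5 of 18 lower and none higher, where 6.21% of all genes were lower. With the offset 3 were lower and on the TPM scale 1 (3.12% and 1.35% of all genes). In Vehicle 4 of the 18 were lower (4.17% of all genes), with a median of -0.18, against -0.19 in Ruc_Total. Set against Vehicle, 1 of the 18 was more positive and none more negative (8.61% and 8.64% of all genes). HSPE1, the mitochondrial chaperonin partner, had 142, 168 and 125 CPM at 24 h, against 254, 214 and 241 CPM at 2 h and fell by 0.70 (adjusted p = 0.0054 from edgeR, 0.017 without the block and 0.043 without replicate 2). HSPA8, the constitutive Hsc70 chaperone, had 1203, 1384 and 1328 CPM at 24 h, against 1729, 1922 and 2011 CPM at 2 h and fell by 0.53 (adjusted p = 0.012 from edgeR, 0.060 without the block). HSPB1, a small heat shock protein, fell by 0.50 (adjusted p = 0.036 from edgeR, 0.40 without the block). In the endoplasmic reticulum list, XBP1, a transcription factor of the unfolded protein response, had 126, 142 and 96.2 CPM at 24 h, against 70.4, 67.4 and 65.5 CPM at 2 h and rose by 0.82 (adjusted p = 0.0015 from edgeR, 0.019 without the block and 0.077 without replicate 2). HSP90B1 was called lower there, with estimates that differed by up to 50.7 times between libraries of 1 replicate, and 19 of the 21 did not pass.

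Targets of YAP and TEAD had 4 of 14 lower and none higher, where 6.21% of all genes were lower and 5.66% higher. In Vehicle 4 of the 14 were also lower and 2 were higher (4.17% and 4.1% of all genes). Set against Vehicle, 3 of the 14 were more negative and 3 more positive (8.64% and 8.61% of all genes). CTGF, a secreted matrix protein, had 21.8, 28.3 and 24.5 CPM at 24 h, against 77.2, 58.6 and 104 CPM at 2 h and fell by 1.71 (adjusted p = 0.0020 from edgeR, 0.0082 without the block and 0.064 without replicate 2). CTGF changed by -1.17 in Vehicle, and the difference of -0.54 did not pass (adjusted p = 0.37 from edgeR). Among matrix genes 3 of 25 rose and 3 fell. LAMB3, a laminin chain of epithelial basement membrane, had 696, 515 and 437 CPM at 24 h, against 311, 268 and 253 CPM at 2 h and rose by 0.97 (adjusted p = 0.00016 from edgeR, 0.018 without the block and 0.056 without replicate 2). LAMB2, another laminin chain, rose by 0.40, whereas THBS1, thrombospondin, fell by 0.74 and SPARC by 0.48 (adjusted p = 0.0043, 0.011 and 0.00092 from edgeR, none passing without the block). With the offset THBS1 and SPARC stood at -0.34 and -0.10 (adjusted p = 0.25 and 0.73 from edgeR), so the size of both depends on how transcript length is treated. CCL2, a chemokine for monocytes, had 0.90, 0.929 and 1.24 CPM at 24 h, against 3.76, 3.48 and 6.44 CPM at 2 h and fell by 2.12 (adjusted p = 0.0032 from edgeR, 0.024 without the block). EDN2, which encodes endothelin 2, had 2.79, 2.41 and 1.54 CPM at 24 h, against 11.7, 6.48 and 9.48 CPM at 2 h and fell by 2.07 (adjusted p = 0.0013 from edgeR, 0.075 without the block). In Vehicle the change of EDN2 was -2.31 (adjusted p = 0.0056 from edgeR). No member of the immediate-early (24 genes) or MAP kinase feedback (17 genes) lists passed in edgeR with the block, although 2 and 3 of them had an unadjusted p under 0.05. Of the immediate-early genes, 2 were higher with mean transcript length as a covariate, and 1 was higher with DESeq2, with its size factors, with either other filter on low counts, without replicate 1 and without libraries under 2800 bases. DESeq2 called 1 MAP kinase feedback gene higher, and limma-voom called no gene of either list. Among 28 glycolysis and hypoxia genes, VEGFA, the vascular growth factor, had 39.7, 38.7 and 34.7 CPM at 24 h, against 19.2, 18.2 and 22.6 CPM at 2 h and rose by 0.91 (adjusted p = 0.022 from edgeR, 0.077 without the block). BNIP3L, a mitophagy receptor, had 80.7, 98.3 and 119.5 CPM at 24 h, against 132, 161 and 162 CPM at 2 h and fell by 0.62 (adjusted p = 0.00011 from edgeR, 0.095 without the block). Its log2 fold change was -0.09 with the offset and -0.02 on the TPM scale (adjusted p = 0.65 from edgeR and 0.95 from limma).

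Of 47 lysosomal lumen genes 3 rose and 6 fell, and of 36 membrane and V-ATPase genes 1 rose and 4 fell, where 5.66% of all genes rose and 6.21% fell. The length covariate gave other counts, in which 6 lumen genes rose and 11 fell, and 2 membrane genes rose and 7 fell (10.6% and 12.6% of all genes). With the offset 1 lumen gene rose and 2 fell, and no membrane gene rose and 2 fell (3.34% and 3.12%). Set against Vehicle, 10 of the 47 lumen genes were more negative and 6 more positive, and 5 of the 36 membrane genes were more negative and 2 more positive (8.64% and 8.61%). GAA, the acid alpha-glucosidase, had 239, 218 and 179.7 CPM at 24 h, against 146, 147 and 148 CPM at 2 h and rose by 0.53 (adjusted p = 0.016 from edgeR, 0.048 without the block). GLA, the alpha-galactosidase, had 9.69, 12.4 and 17.9 CPM at 24 h, against 20.04, 24.7 and 26.1 CPM at 2 h and fell by 0.85 (adjusted p = 0.013 from edgeR, 0.14 without the block). TFE3, a transcription factor of lysosomal genes, had 126, 130.3 and 136 CPM at 24 h, against 96.3, 102 and 102 CPM at 2 h and rose by 0.38 (adjusted p = 0.0014 from edgeR, 0.018 without the block). LAPTM4A, a lysosomal membrane protein, had 143, 213 and 201 CPM at 24 h, against 259.8, 304 and 309.6 CPM at 2 h and fell by 0.67 (adjusted p = 0.00099 from edgeR, 0.14 without the block). LAMP2, another membrane protein, had 74, 87.5 and 124 CPM at 24 h, against 110.5, 133 and 127 CPM at 2 h and fell by 0.41 (adjusted p = 0.017 from edgeR, 0.40 without the block), with overlapping groups. With the offset its log2 fold change was -0.10 (adjusted p = 0.58 from edgeR). LAMP1, CTSL, SCARB2, ATP6V1F, APP and TFEB did not pass, with log2 fold changes of -0.19, -0.13, -0.19, -0.20, 0.07 and 0.59 (adjusted p = 0.066, 0.81, 0.19, 0.21, 0.54 and 0.087 from edgeR). LAMP1 and SCARB2 passed with the length covariate (adjusted p = 0.026 and 0.034 from edgeR), while with the offset both were above 0 (0.03 and 0.16). Of 12 serous and epithelial markers 1 fell, the keratin gene KRT8 (539.8, 939 and 2903 CPM at 24 h, against 1483, 3461 and 3380.0 CPM at 2 h, adjusted p = 0.010 from edgeR and 0.44 without the block), and replicate 3 at 24 h lay far above the other samples of that time. THY1, on the fibroblast list, fell by 0.59 (adjusted p = 0.00012 from edgeR, 0.33 without the block).

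The genes with the largest changes among those called, of at least 5 CPM and moved the same way in 3 of 3 pairs, held both well measured and uncertain ones. Besides CHAC1 and SERPINB2, ADM2, which encodes the peptide adrenomedullin 2, had 10.3, 11.9 and 12 CPM at 24 h, against 3.44, 3.8 and 3.92 CPM at 2 h and rose by 1.62 (adjusted p = 5.2e-05 from edgeR, 0.043 without replicate 2). ZSWIM9, a zinc finger gene, had 39.2, 35 and 21.1 CPM at 24 h, against 13.9, 13.2 and 9.23 CPM at 2 h and rose by 1.37 (adjusted p = 0.00034 from edgeR, 0.037 without the block). The others called higher were AC011479.1, AL358472.7, the readthrough gene NME1-NME2, DDIT4-AS1, EIF4EP2 and DIMT1, with fold changes of 3.94, 3.74, 2.33, 1.97, 1.81 and 1.75. Their estimates differed by up to 13.2 to 1163 times between libraries of the same replicate, and near-identical or overlapping transcripts can be split by the estimate, so these are uncertain. Besides MT-CYB, MT-ATP6 and EDN2, those called lower were RPS18, AC004057.1, RPS23P8, P4HB, MTND2P28, DBR1 and TAF9, whose estimates differed in the same way by up to 12.9 to 1118 times. RPS18 was listed through 1 of its 8 transcripts, and RPS23P8 changed sign without libraries under 2800 bases (0.15, against -3.29 with all libraries).

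The change over time in Ruc_Total was set against that in Vehicle within the same fit, and the 4 groups share no samples. The changes differed in 3420 genes, 1707 more positive and 1713 more negative in treated cells, or 17.2% of genes (8.61% and 8.64%). CHAC1 (difference 1.85), SERPINB2 (2.12), MMP1 (2.67) and GADD45A (1.75) were more positive, and KIF20A (-2.20), PLK1 (-1.17), CCNB1 (-0.78) and MT-CO3 (-2.72) more negative (adjusted p = 0.0018, 0.00064, 0.00097, 0.0019, 0.00020, 0.0034, 0.012 and 0.013 from edgeR, in that order). In the G2 and mitosis list 40 of 60 were more negative and none more positive, and in the ATF4 and CHOP list 11 of 26 were more positive and none more negative. The count was 23 without the block (17 more positive), 65 without replicate 1 (41 more positive), 0 without replicate 2 and 4850 without replicate 3. Without replicate 2, 3582 genes had an unadjusted p under 0.05. With mean transcript length as a covariate 732 differed. In Vehicle at 2 h, replicate 1 stood apart for some of the genes named here. MT-CO3 had 156, 628 and 809 CPM there and KIF20A 51.9, 116 and 137 CPM, in the order of replicates 1, 2 and 3. CHAC1 did not vary in this way (7.83, 8.32 and 7.84 CPM).

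Set against the mean change over time of Ruc_High and Ruc_Low, which had the same drug and times, no gene differed with edgeR and the block, although 2945 had an unadjusted p under 0.05. DESeq2 called 240 (143 more positive, 97 more negative in unsorted cells) and limma-voom none. The list with the largest median difference was that of the mitochondrially encoded genes, -1.81, against -0.02 over all genes. For MT-CO3 the difference was -2.0 (adjusted p = 0.24 from edgeR), and for KIF20A it was -0.35 (adjusted p = 0.38 from edgeR). KIF20A changed by -1.30 in Ruc_High and -1.43 in Ruc_Low, CHAC1 by 1.06 and 1.63, and SERPINB2 by 1.23 and 1.57. Sorted cells were detached and passed through a sorter before lysis, and drug level, handling and sorting cannot be told apart in this comparison.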

How the data were processed

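RNA of PEO1 cells was read from poly(A)-selected, strand-marked libraries. The authors deposited 1 table a library, 72 in all, in which Salmon gives estimated counts and TPM for every transcript. Named in the processing notes of the submitters are also the GRCh38 build, cutadapt 4.7 and DESeq2 1.44.0. The Salmon version, the annotation and the use of strand are not given in the sources used here. Of 257369 transcripts, 194437 were matched to a gene by GENCODE 29. The other 62932, with 9.65% to 11.66% of a library's reads, were left out.

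Estimated counts were summed to genes and over the 3 libraries of a replicate, and rounded. Of 55411 genes listed, 19834 passed filterByExpr and were fitted over all 24 summed samples (8 groups of 3) with TMM and edgeR 4.0.16 in R 4.3.3, with the replicate number as a block and 14 residual degrees of freedom. The numbers were taken to pair the samples because the reporting summary, written for imaging and sorting experiments in general, puts each biological replicate on its own day and describes technical replicates as separate wells. Deviations from the group means correlated with a median of 0.27 between same-numbered samples of different groups (lowest -0.05) and of -0.12 between other numbers. For Ruc_Total at 24 h and 2 h they were 0.34, -0.05 and 0.21 in replicates 1, 2 and 3. Correlations between other numbers of these 2 groups ran from -0.37 to 0.21. Deviations within a group sum to 0, so the value for other numbers is tied to that for the same number and is no separate support for the pairing. p-values measure the spread between these replicates of 1 line. No library duplicated another (chi-square of at least 6.82 per degree of freedom within replicates, over genes with 50 or more counts).

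Members, lists and tests were chosen with earlier results of these data known. Genes named are up to 10 per direction with the largest change, of at least 5 CPM and moved alike in 3 of 3 pairs, up to 3 called members per list and direction, those the paper names, and up to 5 per direction that differ most from Vehicle. Those outside the rule are said to be so, or are members of the lists named with their counts. Values of some genes that the rule names, or that the counts include, are not reported here. Lists are described by counts and medians. Alternatives were no block, DESeq2 1.42.0 and its size factors, limma-voom (limma 3.58.1), other filters, only the groups compared, mean transcript length as a covariate, an offset for effective length, log2(TPM + 1) with limma, each replicate left out and no libraries under 2800 bases. Fits were tested on simulated data.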

Additional observations from a re-analysis of the deposited data

Results flagged for a closer look

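In Ruc_Total at 2 h, the library with the highest share of mitochondrial mRNA (1.518%, replicate 1) lay far from the other 8 of its group. It was the 1 of 16 group ends tested that did so, and chance gives about 1 in 20.

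Of the 124 genes named, 78 differed between Ruc_Total and Vehicle in their change over time (edgeR interaction with the replicate block, adjusted p under 0.05), and none of them did without replicate 2, where the fit called 0 genes and 3582 had an unadjusted p under 0.05. Without replicate 1 the fit called 65 genes. The values below are the change in Ruc_Total minus that in Vehicle, on the log2 scale. More positive among genes of stress, arrest, death, NF-kB, DNA repair, DNA replication and S phase were CHAC1 (1.85), ADM2 (1.45), TRIB3 (1.5), NUPR1 (0.90), XBP1 (1.23), GADD45A (1.75), TP53I3 (0.60), XPC (0.30), TNFRSF10A (0.58), CFLAR (0.51), FADD (0.81), RELB (1.15), XRCC3 (0.70), GINS1 (0.90), CCNE1 (0.51) and CHAF1A (0.83). Among genes of proteolysis, matrix, lysosome, hypoxia and transcription, SERPINB2 (2.12), MMP1 (2.67), MMP10 (1.99), LAMB3 (1.43), LAMB2 (0.53), COL6A1 (0.61), IDUA (1.41), GAA (0.72), MAN2B1 (0.34), TFE3 (0.28), VEGFA (1.05), ANKRD37 (1.44), MEPCE (0.68) and ZSWIM9 (1.78) were more positive.

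More negative among genes of G2 and mitosis were KIF20A (-2.20), DLGAP5 (-1.39), CCNB2 (-1.21), PLK1 (-1.17), AURKA (-0.88) and CCNB1 (-0.78). Of the mitochondrial genome, MT-CYB (-3.21), MT-ATP6 (-3.08), MT-CO3 (-2.72) and MT-CO2 (-1.95) were more negative, as was MTND2P28 (-3.95), a pseudogene copy of MT-ND2. Others were RPL27 (-1.0), CCNG1 (-0.57), POLE2 (-0.79), FANCL (-0.45), HSP90B1 (-1.70), ERBB3 (-1.04), SPARC (-0.43), AMOTL2 (-0.35), BNIP3L (-0.65), GAPDH (-0.42), CYP1B1 (-0.65), GLA (-1.07), IDS (-0.88), LAPTM4A (-0.78), LAMP2 (-0.77), IFITM3 (-0.40), CCNT2 (-1.0), CLOCK (-0.89), KRT8 (-1.65), THY1 (-0.57) and DBR1 (-3.48).

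Uncertain values, from genes whose estimates jumped between libraries of 1 replicate or that had samples at or near 0, were AC011479.1 (5.72), NME1-NME2 (3.26), EIF4EP2 (2.85), DIMT1 (3.44), LINC01106 (3.50), RGL2 (17.37), AC078927.1 (9.01) and TECRP1 (7.71) as more positive, and RPS18 (-8.51), AC004057.1 (-6.20), TPBG (-14.90), PTPRK (-6.70) and AL139011.2 (-5.35) as more negative. These fitted values are no bounds. TPBG, for example, had 0, 0 and 0 CPM at 24 h, against 25.8, 81.7 and 0 CPM at 2 h in Ruc_Total. DBR1, GINS1 and HSP90B1 jumped between libraries as well.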

How the results depend on the processing

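The count of genes called at 24 h against 2 h (2355, 47.7% of them higher) was 372 (62.1% higher) without the replicate block, 1495 (58.3%) with no filter on low counts, 14 in a fit of the 6 Ruc_Total samples alone, 4590 with the block and the mean transcript length as covariate, 1280 with an offset for effective length and 1269 (79.0%) on the log2(TPM + 1) scale. Leaving out each replicate gave 19 to 1151. For the difference from Vehicle (3420) the counts were 23 without the block, 112 with only the groups compared, 732 with the length covariate, 1294 with the offset and 1046 on the TPM scale, and 0 to 4850 without each replicate. For the difference from sorted cells (0 with edgeR) they were 240 with DESeq2, 3 with no filter and 4 with the length covariate, and 0 to 1 without each replicate.

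For the lists, members called without the block were 10 of 39 for G2 and mitosis, 4 of 13 for ATF4 and CHOP targets, 2 of 11 for mitochondrially encoded genes, 2 of 23 for ribosomal proteins and 3 of 15 for cholesterol and fatty acid synthesis. In a fit of the 6 Ruc_Total samples alone, the members called were 0, 1, 0, 1 and 0 in the same order. Ribosomal proteins reached 43 with the length covariate. Without each replicate the lists in the same order had 1 to 28, 1 to 12, 0 to 11, 0 to 12 and 0 to 15 called. Of the 124 named genes, 108 were called at 24 h against 2 h. Of these the sign turned for SLC3A2 (0.18 with the offset, 0.30 on the TPM scale) and RPS23P8 (0.15 without libraries under 2800 bases), and of the 16 not called it turned in at least 1 alternative for SCARB2, LAMP1, CTSL, PARP2 and APP. Of the 108 calls, 82 were lost without the block, 98 with only the groups compared, 102 without replicate 2, 58 on the TPM scale, 42 without replicate 1 and 57 without replicate 3, and 0 to 45 under the other alternatives. The causes were not tested. Total reads in Ruc_Total were higher at 24 h than at 2 h in 3 of 3 pairs (exact permutation test, two-sided, p = 0.1, the smallest that 3 against 3 samples allow). An effect of depth on the calls was not tested.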

Other observations

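The other gene lists had few members called between 24 h and 2 h in Ruc_Total, against 5.66% of all genes higher and 6.21% lower. Of 25 chemokine and NF-kB feedback genes, 1 was higher and 1 lower, with RELB, an NF-kB subunit, at 136, 132 and 84.4 CPM at 24 h and 86.2, 73.9 and 72.5 CPM at 2 h (log2 fold change 0.57, adjusted p = 0.013 from edgeR, 0.25 without the block). Among 11 EGF receptor ligands and receptors, the ligand gene BTC was higher (0.41) and the receptor gene ERBB3 lower (-0.80), and ERBB3 had 45.9, 70.9 and 34.3 CPM at 24 h and 77.9, 104 and 73.1 CPM at 2 h. TXNIP, a thioredoxin-binding arrestin that answers to glucose, was the one of 4 arrestin genes that passed (0.78). CYP1B1 was the one of 8 AHR targets that passed (-0.61), and 3 of 19 NRF2 targets were lower, among them the ferritin light chain FTL (-0.37) and TKT (-0.28), the gene of transketolase.

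Of 37 genes of the interferon response and antigen presentation, IFITM3 was lower (-0.30) and none higher. In the list of P-TEFb and elongation control, MEPCE, the capping enzyme of 7SK RNA, had 55.5, 56.1 and 65.5 CPM at 24 h and 38.3, 50.5 and 44.1 CPM at 2 h in Ruc_Total (log2 fold change 0.41), and 71.8, 68.8 and 69.3 CPM at 24 h and 96.6, 78.1 and 76.8 CPM at 2 h in Vehicle. CCNT2, a cyclin of P-TEFb, was lower (-0.76). Of 19 clock genes 2 were lower, CLOCK (-0.47) and BHLHE40 (-0.34), and of 20 splicing kinase and SR protein genes 3 were lower, TRA2A (-0.46), TRA2B (-0.45) and SRSF6 (-0.36). None of the genes named here with a fold change passed without replicate 2, and CCL2 was the other called chemokine gene.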
